A study of Mus musculus with 37 samples.

Results

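The authors listed open reading frames (ORFs), each with a score, for ribosome footprint libraries of mouse bone marrow-derived dendritic cells. Of these ORFs, 2443 of 22367 (10.9%) were splice variants that kept the start codon and the stop codon of the main ORF of their gene. The ORFs were grouped into 10418 families by the gene or transcript name they carry, on 1 chromosome and strand. The main ORF of a family was the ORF with the most codons, with ties settled by score and then by name. A splice variant was any other ORF with the same first and last coding position, at least 1 codon shared in frame and different coding exon blocks. Splice variants were found in 1848 of 10418 families (17.7%, 95% exact Clopper-Pearson interval 17.0 to 18.5). They were found in 1840 of the 9687 families whose main ORF spanned more than 1 coding exon (18.99%, interval 18.2 to 19.8). In the other families with a variant, the exon that the variant splices was a single coding exon in the main ORF. All such intervals cover counting error over ORFs, exons, genes or families only.

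The study has 37 ribosome footprint libraries of C57BL/6J mice aged 6 to 8 weeks, whose marrow was grown into dendritic cells, the antigen-presenting cells that alert T cells. Cells received lipopolysaccharide (LPS), a bacterial product sensed by Toll-like receptor 4, at 100 ng/mL for 0.5, 1, 2, 4, 6, 8, 9 or 12 h, or a mock treatment, or were naive. Cycloheximide, which arrests elongating ribosomes (100 ug/mL, 1 min), was used in 16 LPS, 8 mock and 2 naive libraries, and no drug in 8 LPS libraries and 1 naive library. Harringtonine (1 ug/mL, 5 min) and lactimidomycin (50 ug/mL, 30 min) stall ribosomes that have just begun a protein, and each marked 1 library of pooled LPS times. The labels name 1 ORF list for every library, and the list has no value per library. Which libraries entered the calls is not stated. No level, no change with LPS and no replicate spread can therefore be given for any splice variant, the depth is unknown, and no difference below was tested. Of 16 dendritic cell marker genes, 15 were in the list, Flt3 being the exception, as were 6 of 6 macrophage, 8 of 8 neutrophil, 4 of 5 fibroblast, 2 of 5 mast cell, 1 of 5 B cell and 1 of 5 T cell markers. Being listed says nothing of the level of a gene.

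Alternative splicing joins the exons of a gene in different ways. A cassette exon is included in some transcripts and skipped in others, an alternative donor or acceptor moves the end or the beginning of an exon, mutually exclusive exons replace each other, and a retained intron is left in the transcript. Where the bases gained or lost form whole codons and hold no stop codon, the protein keeps both of its ends and differs only inside. In immune cells such switches are known in receptors, kinases and adaptors. What a footprint library can add lies in footprints on an exon, or across a junction, that not every form of the gene has. Footprints on shared exons fit every form of the gene equally. In 1050 of the 1101 cassette exon differences described below, main held the extra bases, so the variant differed there only by its junction.

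The score in the list did not separate a splice variant from its main ORF. All 2443 variants carried exactly the score of their main ORF. This held for every start and stop pair in the list: each of the 2220 pairs with more than 1 ORF had a single score. By contrast, of 716 start codons with more than 1 stop codon, only 20 (2.79%) had a single score. A score below therefore belongs to the start and stop pair, not to a splice form. Whether footprints on the differing exons or junctions decided what was listed is not stated by the labels. The number of variants per family was 1 in 1398 families, 2 in 338, 3 in 88, 4 in 18, 5 in 4, 6 in 1 and 7 in 1.

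Proteins of the dendritic cell surface supplied variants in which a receptor kept its ends and lost an inner stretch. Ptprc, the receptor tyrosine phosphatase CD45, had a main ORF of 1154 codons and a 1130-codon variant without a 72-base exon at chr1:140013531-140013602 (mm9, counted from 1, as for all positions here), which begins in codon 33. Cd44, the hyaluronan receptor, had 434 codons and a variant of 365 codons without a 207-base exon at chr2:102671487-102671693. Fcgr2b, the inhibitory Fc receptor for IgG, is known for an insert in its cytoplasmic tail that is present in the B cell form and absent from the form of phagocytes. Its main ORF of 330 codons had a variant of 276 codons that lacked a 141-base exon at chr1:172893456-172893596 together with a 21-base exon at chr1:172899605-172899625. A second variant of 302 codons kept the beginning of the 141-base exon and lost its last 84 bases. The score of these 3 ORFs was 614, while a 293-codon ORF from another start, upstream of theirs, with the same stop scored 970. In the plot of coding exons for 8 genes, the missing stretches of these receptors lie as gaps between blocks that the variant shares with main.

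**Figure D1:**
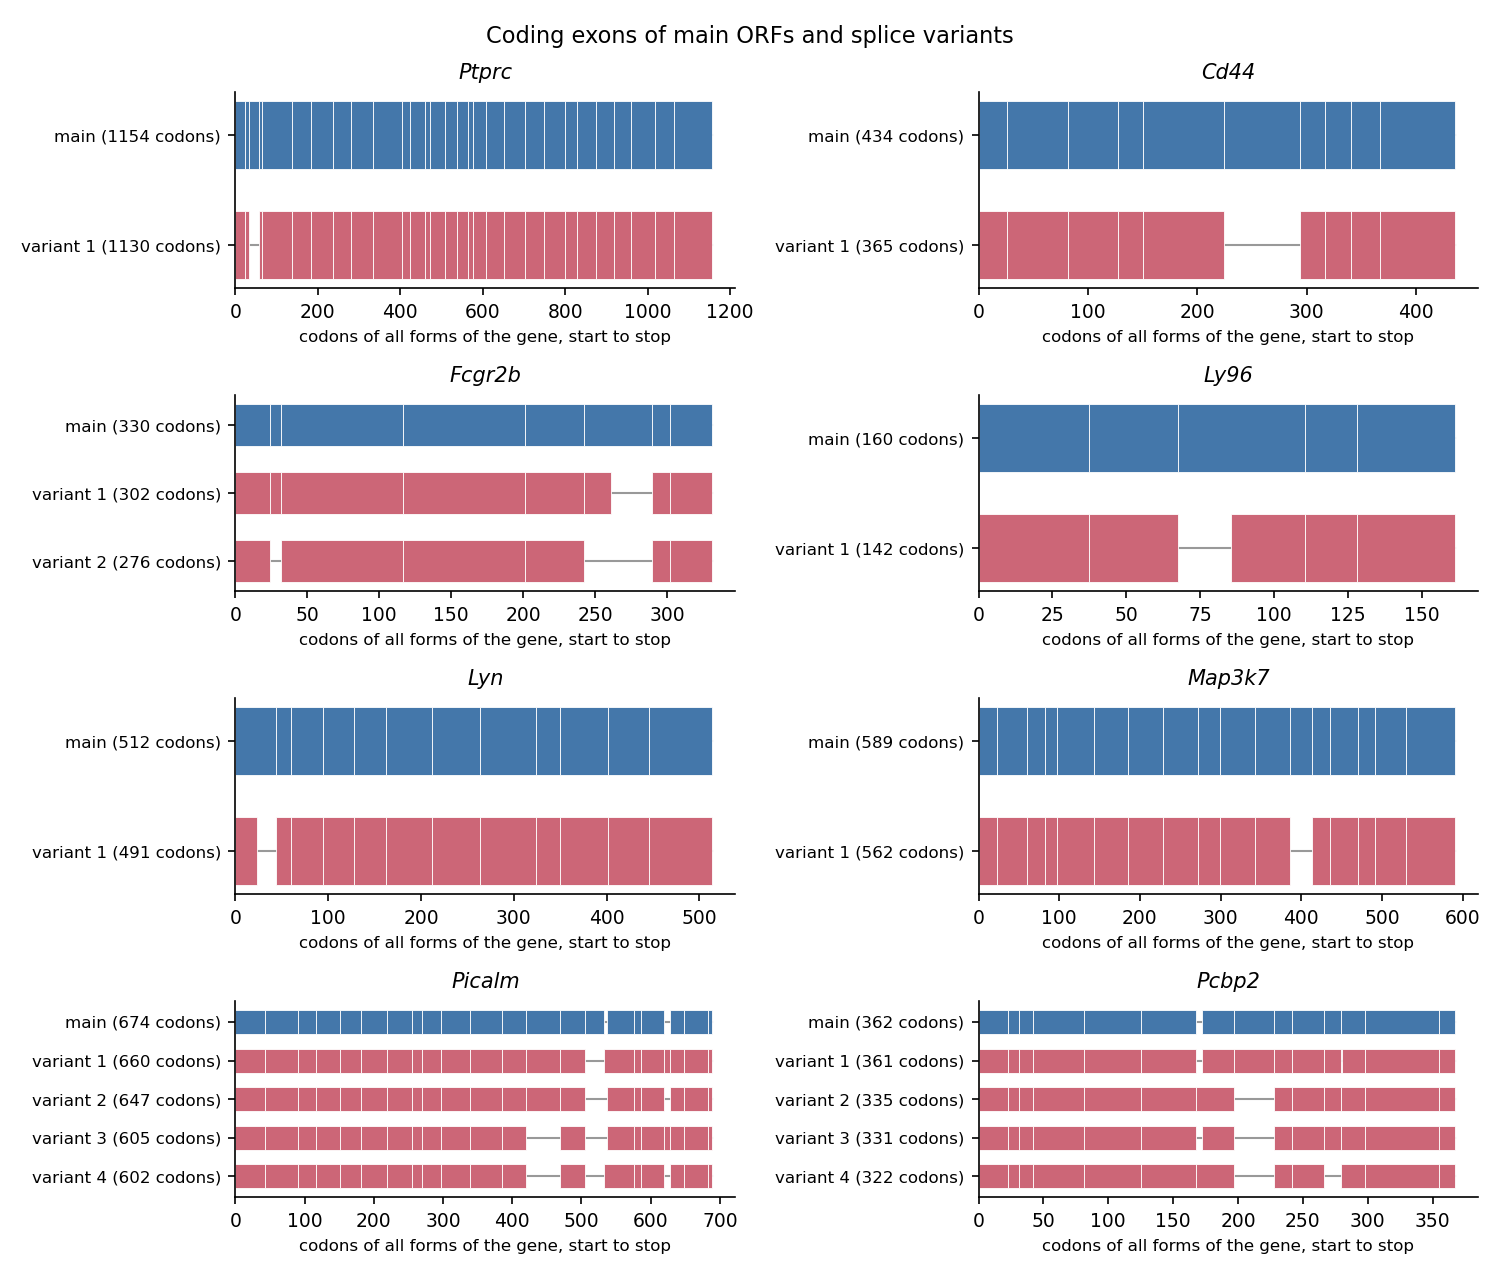
Coding exons of the main ORF (blue) and of each splice variant (red) of 8 genes, drawn from start to stop along the codons of all forms of the gene together; blocks are coding exons and grey lines are stretches a form lacks. Lyn lacks 63 bases near its start in the 491-codon variant, and no variant of Picalm or Pcbp2 is as long as its main ORF.

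In the list of Toll-like receptor and NF-kB signalling, 10 of 50 genes with more than 1 coding exon had a variant (20.0%). This was near the 19.2% of all named genes with more than 1 coding exon. The 6 genes named here each had a single difference, of 3 to 546 bases. Ly96, the MD-2 protein that holds LPS on Toll-like receptor 4, had 160 codons and a variant of 142 codons, whose exon from codon 68 lacks its first 54 bases, at chr1:16690876-16690929. Irak1, a kinase of this pathway, had 717 codons and a variant of 678 codons without a 117-base exon at chrX:71263240-71263356. Irak2, its relative, had 622 codons and a variant of 555 codons without a 201-base exon at chr6:113636752-113636952. Map3k7, the kinase TAK1, had 589 codons and a 562-codon variant without the 81-base exon at chr4:32081849-32081929. Ikbkg, the regulatory subunit of the IkB kinase, lost 1 of its 412 codons through an acceptor 3 bases downstream. Cyld, a deubiquitinase that restrains NF-kB signalling, had 952 codons and a variant of 770 codons without several exons that sum to 546 bases.

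Kinases and adaptors of immune receptors included forms known by name. Lyn, a Src-family kinase, is known in a long and a short form that differ near the amino end. The list held both, of 512 and 491 codons, through a donor that moves by 63 bases at chr4:3665946-3666008, with a score of 980. Prkcd, protein kinase C delta, had 700 codons and a variant of 674 codons through a donor that moves by 78 bases at chr14:31415845-31415922. Traf2, a ubiquitin ligase of tumour necrosis factor receptors, had 508 codons and a variant of 501 codons through a donor 21 bases earlier. Both Prkcd and Traf2 scored 991, the highest value in the list. Ptpn1, a phosphatase that acts on cytokine receptor kinases, also scored 991 and had a 362-codon variant without a 210-base exon of its 432-codon main ORF. Lat2, a membrane adaptor, showed nested differences at 1 site: a variant began the exon at codon 92 of main 12 bases later, and another lacked the whole 48-base exon. Vav1, an exchange factor for Rac, had 845 codons, and its variants of 821 and 806 codons differed from main at separate sites, by a 72-base intron near the start and a 117-base exon from codon 671.

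The 2443 variants were described by 2720 distinct differences from main, each counted once per family. Of the variants, 1927 (78.9%) differed from main at 1 site, 408 at 2, 93 at 3, 13 at 4 and 2 at 5. Cassette exons were the most frequent type, with 1101 differences (40.5%, interval 38.6 to 42.4), and a further 200 (7.35%) skipped several neighbouring exons. Alternative acceptors made up 711 (26.1%, interval 24.5 to 27.8) and alternative donors 394 (14.5%, interval 13.2 to 15.9). Retained introns numbered 125 (4.60%), mutually exclusive exons 38 (1.397%) and complex differences 151 (5.55%). Retained introns were typed by place alone, as stretches inside an exon of 1 form that the other form lacks. The smallest had 12 bases. Which form is the usual one is not settled by these names, since main is only the longest listed. For example, the main ORF of Eif1, which helps ribosomes select start codons, had 228 codons, and its variant, through a donor 345 bases earlier, had 113.

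Sizes differed between the types. The median cassette exon difference was 105 bases (quartiles 69 and 147), that of alternative donors 36 (12 and 90), and that of alternative acceptors 12 (3 and 37.5). Several skipped exons summed to a median of 262.5 bases. Acceptors piled up at the smallest possible steps: 253 of 711 (35.6%, interval 32.1 to 39.2) moved by 3 bases and 70 (9.85%) by 6. Of 394 donors, 18 (4.57%, interval 2.73 to 7.12) moved by 3 bases and 34 (8.63%) by 6. Of all 276 differences of 3 bases, 253 (91.7%, interval 87.8 to 94.6) were acceptors, 18 were donors and 1 was a cassette exon. An acceptor followed by another AG after 1 base is a well-known source of such steps, but no genome sequence was read here, so the letters at these sites were not examined. The differences of 3 bases lay in 259 families.

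**Figure D2:**
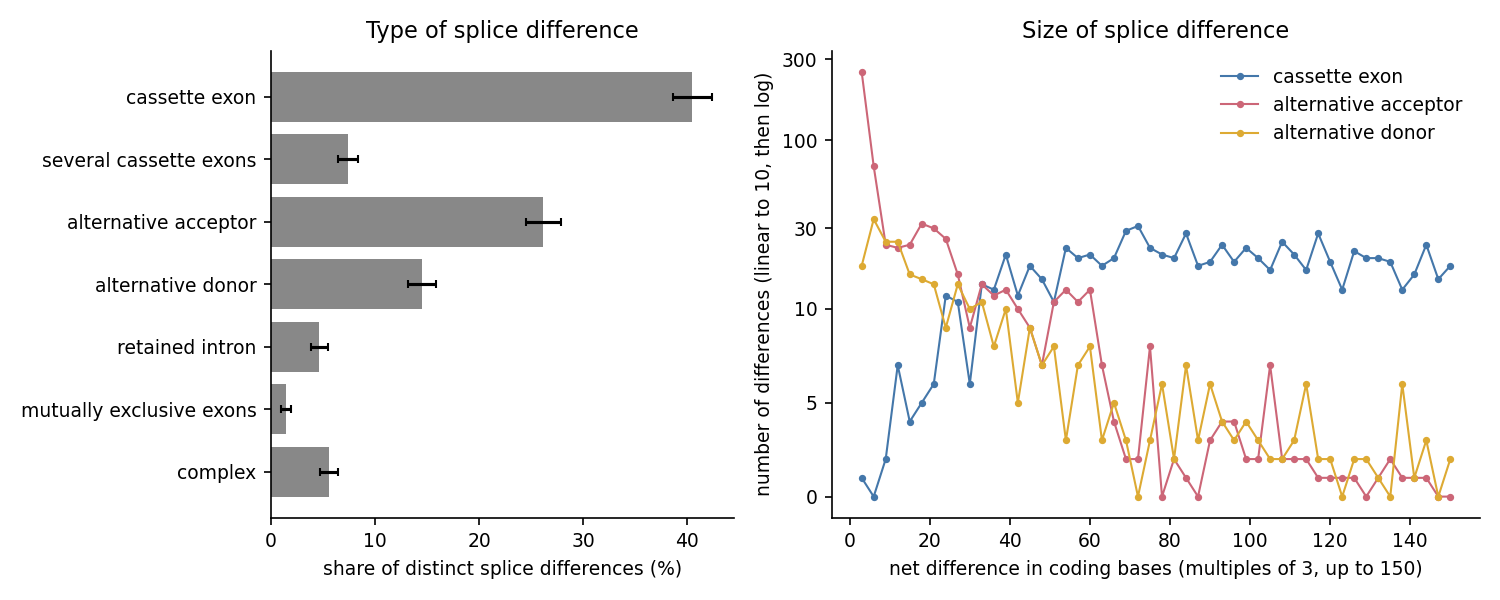
Left, share of the 2720 distinct splice differences by type, with 95% exact intervals. Right, number of cassette exon, acceptor and donor differences at each net size of 3 to 150 coding bases in steps of 3, on an axis that is linear to 10 and logarithmic above; acceptors peak at 253 differences of 3 bases.

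Single-codon variants were found in the following named genes. Adam8, a metalloprotease, had 826 and 825 codons and Cd84, a receptor of the SLAM family, had 329 and 328, both with a score of 991 and an acceptor 3 bases apart. Itgam, the integrin CD11b, had 1154 codons, a 1153-codon variant by an acceptor at chr7:135245148-135245150, and a 1036-codon variant without several exons that sum to 354 bases. In Itgal, the integrin CD11a, the step of 3 bases was at a donor, giving 1162 and 1161 codons. Nlrp3, the inflammasome sensor, likewise had 1033 and 1032 codons through a donor. Rps25, a protein of the small ribosomal subunit, had 126 and 125 codons through an acceptor. Of the 253 acceptor steps, 98 fell between codons, 108 after the first base of a codon and 47 after the second base.

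By the rule, variants were never longer than main. Their median loss was 30 codons, with quartiles of 12 and 56, or 4.33% of the main ORF, with quartiles of 1.42 and 9.29. In 174 variants (7.12%) 1 codon was lost, 32 (1.31%) were as long as main, and 29 (1.19%) were less than 50% as long. Nearly all codons of a variant were also codons of main: 2425 of 2443 (99.3%) shared more than 90% of their codons with it. The longest losses among families with 1 variant were in Srrm2, a large protein of the spliceosome, with 2703 and 706 codons, and in Mprip, a binding protein of myosin phosphatase, with 2231 and 999 codons. In Mprip the variant lacked a single exon of 3804 bases at chr11:59571026-59574829 and was longer than main at another site. Lengths that are a multiple of 3 were found in 2704 of 2720 differences (99.4%), which a shared start, stop and frame largely impose. In 8 variants a stretch between 2 sites was read in another frame than in main. Rps10, of the small ribosomal subunit, was among them, with a 133-codon variant of a 165-codon main ORF.

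Equal-length variants swapped stretches. Acp1, a low molecular weight phosphatase known in forms made by exon exchange, had 158 codons in both forms and exchanged a 114-base exon for another of 114 bases within chr12:31589583-31589848. Tpm1, an actin-binding tropomyosin, had 248 codons in both forms and exchanged exons of 76 bases within chr9:66879758-66880348. Calu, a calcium-binding protein of the secretory pathway, exchanged 194 bases and Acsl1, an acyl-CoA synthetase, 78 bases, with 315 and 699 codons in both forms. The related transcription factors Mef2c and Mef2d each exchanged exons at the same place in the protein. In Mef2c an exon of 144 bases that begins in codon 87 was replaced by one of 138 bases, and in Mef2d an exon of 138 bases that begins in codon 87 was replaced by one of 135.

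Stretches typed as introns retained in main and spliced out of the variant gave large inner losses in short proteins. Zfp36, the RNA-binding protein tristetraprolin that destabilises cytokine mRNAs, had 319 codons and a variant of 244 codons without 225 bases at chr7:29162634-29162858. Lgals3, the lectin galectin-3, had 264 and 201 codons, without 189 bases at chr14:47999748-47999936 near its start. The scores were 991 for Zfp36 and 990 for Lgals3. Among cassette exons with the highest scores, Actb, cytoplasmic actin, had 375 codons and a variant of 295 codons without the 240-base exon at chr5:143666916-143667155. Psma3, an alpha subunit of the proteasome, had 255 and 233 codons, without a 66-base exon. Both scored 991.

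Cassette exons were compared with other internal coding exons of the main ORFs. Main included 1050 cassette exons, with a median length of 108 bases (quartiles 72 and 150). The other 34929 internal coding exons of a multiple of 3 bases had a median of 120 (90 and 162). The others were all such exons that no variant skipped as a single cassette exon. They can include exons skipped together with neighbours or altered by other types of difference. Exons of 27 bases or fewer, often called microexons, were 40 of 1050 cassette exons (3.81%, interval 2.74 to 5.15) and 0.470% of the others. Because families with variants may have other exons than the rest, the same was set against the 5015 other such exons of the 928 families that hold a cassette exon. Of these, 29 (0.578%, interval 0.388 to 0.829) were 27 bases or fewer. Introns beside cassette exons were longer, with medians of 1882.5 bases before and 1721 bases after, against 1398 and 1318 in the other exons of the same families. Cassette exons began after the first base of a codon in 34.5% (interval 31.6 to 37.4), against 24.3% (23.1 to 25.5) of the other exons of the same families, and between codons in 51.1% against 63.4%.

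**Figure D3:**
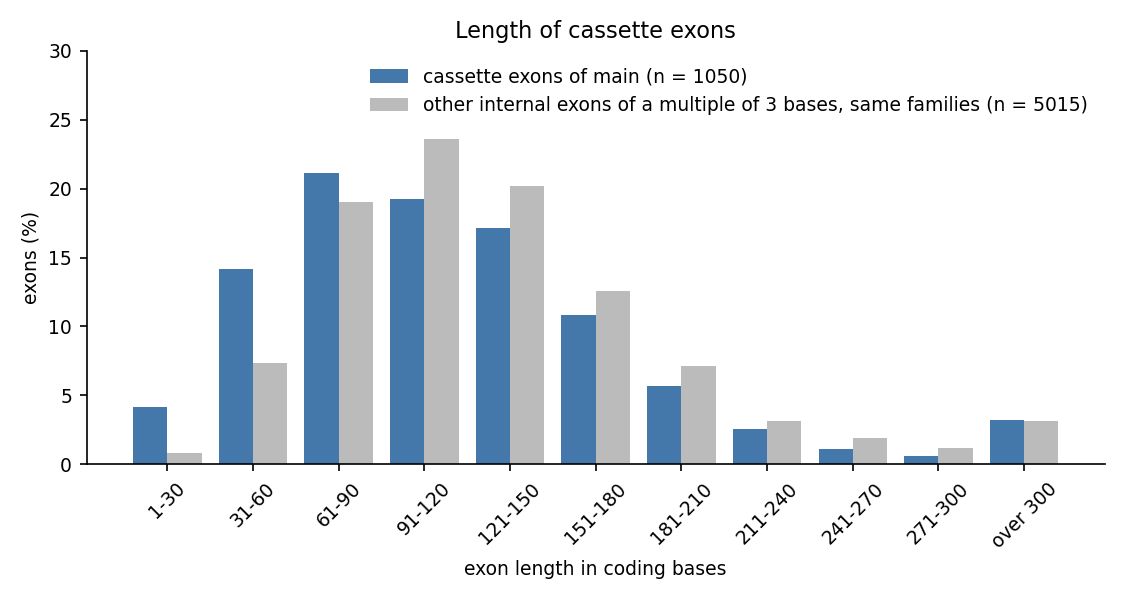
Length of the 1050 cassette exons that main ORFs include (blue) and of the 5015 other internal coding exons of a multiple of 3 bases in the same families (grey), as the share of exons in each length class. Exons of 1 to 30 bases are 4.19% of cassette exons and 0.818% of the others. The others can include exons that variants altered in other ways than skipping a single exon.

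The microexons were spread over proteins of several kinds. Relb, an NF-kB subunit, had a 9-base exon in a 558-codon main ORF, and Asap2, which acts on Arf GTPases in membrane traffic, also had one of 9 bases. Sptan1, a spectrin that lines the plasma membrane, and Immt, of the inner mitochondrial membrane, had exons of 15 bases. Zmynd8, a chromatin reader, and Vps29, a retromer subunit, had exons of 12 bases. Exons of 27 bases were listed in Max, the partner of Myc, in Axl, a receptor tyrosine kinase that limits inflammation, in Ncor1, a corepressor, and in Ptpra, a receptor phosphatase. The smallest was an exon of 3 bases in Spp1, the secreted protein osteopontin, whose main ORF had 295 codons. Apart from Sptan1 and Ncor1, these genes were chosen after their values were seen.

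Families with several differences from main at separate sites did not list every combination of them. Of 331 families with 2 differences at separate sites, 119 listed main and each difference alone, 106 listed main, 1 difference alone and both together, and 106 listed main and both together only. None listed all 4 combinations. Families whose differences overlapped were left out of these counts. Neighbouring exons skipped together count as 1 difference that overlaps each exon skipped alone. The counts therefore could not show all combinations of neighbouring exons. Families with a single variant cannot list all combinations. Of the 328 families with at least 2 variants and at least 2 separate differences, 0 had more variants than differences. The families with the most variants, Cep170, Clasp1, Pum2, Baz2b, Zfml and Smox, were among those left out for overlap. Pcbp2, a poly(C)-binding protein, shows the pattern: 4 differences gave main and 4 variants, of 361, 335, 331 and 322 codons against 362. Picalm, a clathrin assembly protein, was also left out of the counts for overlap. Its variants had 660, 647, 605 and 602 codons against 674. They differ around codons 420 to 533 and by a 24-base exon at codon 616. Why combinations were absent was not tested.

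Of the families with the most variants, 6 had 5 or more. Cep170, a centrosomal protein, had 7 variants of 1430 to 1561 codons against 1640. Clasp1, which stabilises microtubule ends, had 6 variants of 1363 to 1496 codons against 1536, and a 117-base exon from codon 1123 was absent from all 6. Pum2, an RNA-binding repressor of translation, Baz2b, a chromatin protein, Zfml and Smox, a spermine oxidase, had 5 variants each. Those of Smox had 195 to 560 codons against 590, and those of Zfml 1188 to 1909 against 1926. Map4k4, a kinase upstream of JNK, had 4 variants of 1157 to 1252 codons against 1298, and all 4 lacked the 231-base exon from codon 537. In Sp100, a nuclear body protein induced by interferon, 4 variants had 500 to 650 codons against 668.

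The share of families with a variant went up with the number of coding exons of main. It was 5.27% at 2 to 4 coding exons, 14.04% at 5 to 9, 21.8% at 10 to 14, 31.1% at 15 to 19, 34.2% at 20 to 29 and 38.7% at 30 or more. Families with a variant had a median of 13 coding exons and 619 codons, against 8 and 418 in other families of more than 1 coding exon. Their median main score was 943, against 925. Of those matched to a gene table, 68.2% had more than 1 curated mRNA there, against 43.9%.

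**Figure D4:**
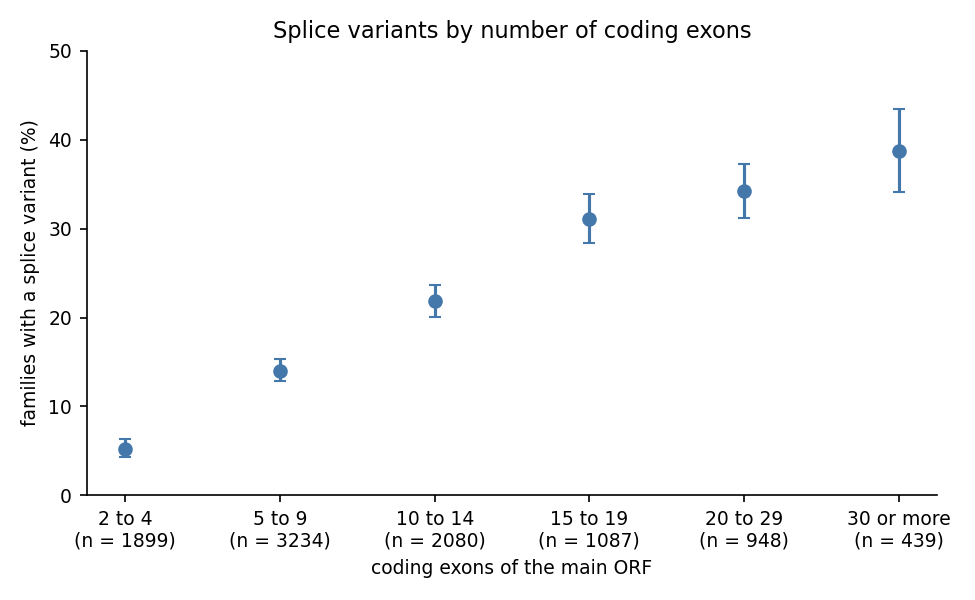
Share of families with a splice variant by the number of coding exons of the main ORF, with 95% exact intervals and the number of families under each class. The share is 5.27% at 2 to 4 coding exons and 38.7% at 30 or more.

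Families with a variant also differed in their other ORFs. An ORF that ended before the main start was listed in 21.7% of them and in 13.9% of other families of more than 1 coding exon. Within each of the 6 classes of coding exon number this share was higher with a variant, from 17.0% to 31.2%, than without, from 13.0% to 16.0%, with overlapping intervals at 2 to 4, 5 to 9 and 20 to 29 exons. Another in-frame start with the main stop was listed in 16.5% of families with a variant and in 24.8% of the others. It was lower with a variant in each class, from 14.5% to 19.4% against 23.9% to 25.7%, with overlapping intervals at 2 to 4, 10 to 14 and 30 or more exons. The rule bears on this last share, because variants that start elsewhere than the main ORF are not counted. Outside the main start and stop, 372 other start and stop pairs in 358 families had more than 1 ORF, and 265 of these families had no variant by the rule. Pkm, pyruvate kinase, known for its exchange of exons between the muscle and proliferative forms, was such a case. It listed 2 ORFs of 531 codons with a score of 985, and its 551-codon main ORF from another start scored 678.

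Some variants were listed a second time from a start further in. The splicing of 108 variants (4.42%) recurred in 116 ORFs that begin downstream and end at the same stop, and 36 of these (31.0%) had a higher score than the variant. In Cd53, a tetraspanin of leukocytes, the 213-codon variant scored 695 and the 200-codon ORF with its splicing scored 977. This gene was chosen after its values were seen. The listed leader of 1383 variants (56.6%) and the trailer of 1557 (63.7%) were those of the main ORF, and both were in 974 (39.9%).

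Gene groups were described by the share of their genes with a variant, beside 19.2% (1837 of 9572) of all named genes with more than 1 coding exon. Because exon number goes with this share, a second value gives the share that the exon numbers of the list would have over all genes. The lists were hand-picked with earlier results of these data known, so a share describes the named genes and not a whole class. The list of transcription factors and chromatin regulators had a variant in 41 of 84 genes (48.8%, interval 37.7 to 59.96), with 23.5% from exon numbers. It also holds Macf1, a cytoskeletal linker, and without it, a count added after seeing the data, the share was 40 of 83 (48.2%). The list of SR and hnRNP splicing factors also holds other splicing regulators, such as Mbnl1 and Rbfox2, and the kinases Clk3 and Srpk2. It had a variant in 28 of 64 genes (43.8%, interval 31.4 to 56.7), with 20.6% from exon numbers. Genes of endocytosis and vesicle traffic had one in 31 of 71 (43.7%, interval 31.9 to 56.0), with 28.3%. For tyrosine kinases, phosphatases and adaptors of immune receptors it was 20 of 56 (35.7%, interval 23.4 to 49.6), with 25.4%, for MAP kinase and PI3K genes 16 of 53 (30.2%), with 28.8%, and for the actin cytoskeleton 24 of 80 (30.0%), with 27.9%.

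Among splicing factors, Hnrnpa2b1, which is known in forms A2 and B1 that differ by a short exon near the start, had 340 codons and a variant of 313 codons. The variant held a 36-base exon at codon 3 and 3 more bases at an acceptor at codon 89, and lacked a 120-base exon at chr6:51414427-51414546. Ptbp1, which represses exons, had 555 codons and a variant of 529 codons without a 78-base exon at chr10:79322862-79322939. Tia1, an RNA-binding protein of stress granules, had variants of 375, 371 and 285 codons against 382, all without a 33-base exon from codon 93. Among transcription regulators, Ezh2, a histone methyltransferase, had 742-, 737- and 704-codon variants of a 746-codon main ORF, and Nfya, a subunit of a CCAAT-binding factor, lost an 84-base exon from codon 26 in its 318- and 312-codon variants. In vesicle traffic, Clta, a clathrin light chain, had 248 codons and a variant of 218 codons without neighbouring exons that sum to 90 bases. Sec31a, a coat protein of vesicles that leave the endoplasmic reticulum, had 4 variants of 1105 to 1202 codons against 1230.

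**Figure D5:**
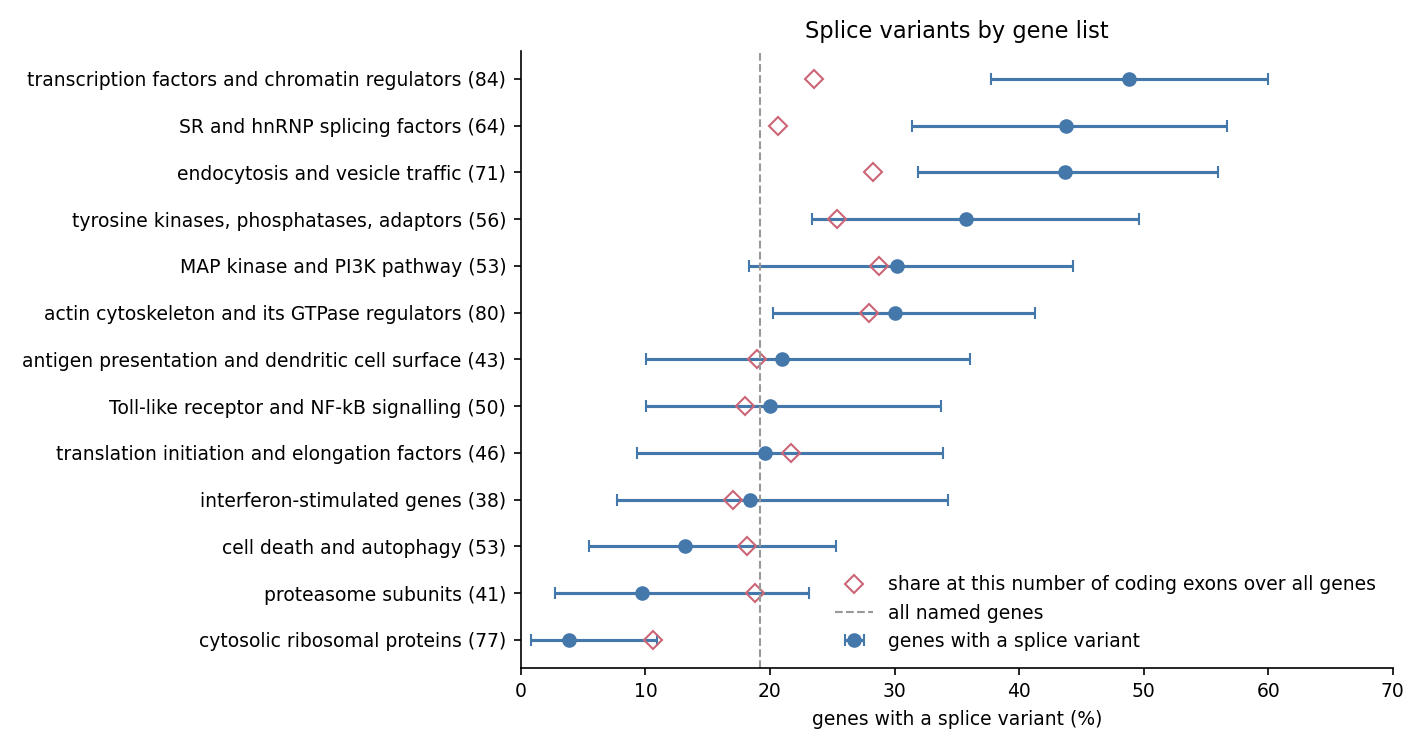
Share of genes with a splice variant in 13 hand-picked gene lists (blue points, 95% exact intervals, number of genes with more than 1 coding exon in parentheses), the share that their exon numbers have over all genes (open diamonds) and the share of all named genes (dashed line, 19.2%). Transcription factors are at 48.8% and cytosolic ribosomal proteins at 3.90%.

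Antigen presentation and surface genes had a variant in 9 of 43 (20.9%, interval 10.0 to 36.0), Toll-like receptor and NF-kB genes in 10 of 50 (20.0%), and interferon-stimulated genes in 7 of 38 (18.4%). The intervals of these 3 lists include the share of all genes. Oas1a, a sensor of double-stranded RNA, exchanged 238 bases for another 238 near its end, Usp18, which removes ISG15 from proteins, had 368 and 324 codons, and Xaf1, a pro-apoptotic protein, had 273 and 178. Translation factors had a variant in 9 of 46 genes (19.6%) and genes of cell death and autophagy in 7 of 53 (13.2%). Gsdmd, the pore-forming gasdermin D, was among the latter, with nested acceptors that remove 27 or 111 bases from codon 74 of its 487.

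Cytosolic ribosomal proteins had one in 3 of 77 genes (3.90%, interval 0.811 to 10.97), with 10.6% from exon numbers, and these were Rpl22, Rps10 and Rps25. Rpl22 lost 2 of 128 codons and Rps25 1 of 126. Proteasome genes had a variant in 4 of 41 (9.76%, interval 2.72 to 23.1), with 18.8% from exon numbers: Psma3, Psmb5, Psmd4 and the activator Psme1. The interval of each of these lists includes its share from exon numbers. Genes with well-known protein forms that had no variant by the rule included Cd74, Clec7a, Syk, Pkm, U2af1, Dnm2, Rac1, Stat3, Numb, Tpm3, Myd88, Il6st, Cd47 and Xbp1. The rule cannot count forms that start or stop elsewhere than main, so having no variant does not mean that such forms were not listed. Cd74, the invariant chain, had only its 215-codon ORF in the list, and Stat3, a cytokine-activated transcription factor, only its 770-codon ORF. Absence from the list does not show that a form is absent from the cells.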

How the data were processed

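Footprints of 28 to 34 nucleotides were sequenced after removal of ribosomal RNA, per the labels' protocols. Bowtie2, TopHat and mm9 are named in the submitters' processing notes. Neither labels nor notes name the ORF caller or the source of the transcripts. The authors deposited 1 list of ORFs for all libraries, with exon blocks, ORF span and a score from 500 to 991 whose meaning is not stated; the score only ranks or filters here.

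Coding exons of each variant and its main ORF were compared in Python, and each stretch in which they differed between shared bases was typed by its place. All 2400 simulated differences got their true type and size. Each simulated gene had 1 difference with main the longer form, and the complex type was not simulated. Family names were matched to RefSeq symbols (GRCm38.p6, names only) for 1837 of 1848 families with a variant. Named genes were the 8 families with most variants, the 4 highest scores per type and 5 longest losses or frame changes among families with 1 variant, up to 6 genes per list, and fixed names. Members and lists were chosen with earlier results of these data known. No sequence was printed, since no genome was used here. A few genes that the rule names are not reported here.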

Additional observations from a re-analysis of the deposited data

How the results depend on the processing

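The 9 main results were recomputed with scores of at least 700 or 900, with the highest-scoring ORF as main, with at least 90% of codons shared, with main ORFs of 100 codons or more, with families named by a symbol and, for shares of differences, once per variant. A further pair of settings, chosen after seeing the data, were every start and stop pair and only variants with 1 difference. The share of multi-exon main ORFs with a variant was 20.2% at scores of 900 or more, 18.04% with the highest-scoring ORF as main and 17.2% with 1 difference only. The share of acceptors was 28.0% at scores of 900 or more and 23.9% with 1 difference only. With 1 difference only, 8.51% of differences were of 3 bases, 100% were a multiple of 3 and the median loss was 27 codons. The other 67 values stayed within the interval of the main value, or within 1.5 times it for counts. They include the counts at scores of 900 or more, which were 1686 variants in 1248 families, against 2443 in 1848. For microexons, acceptor steps and the 13 gene lists, 107 values stayed within the interval of the main value and 1 did not. The latter was 36.9% of transcription regulators with 1 difference only. No paired analysis was possible because the results come from no test. The transcripts behind the list set which variants it can hold, and the share of each variant among the transcripts or footprints of a gene was not measured.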
